A study of Caenorhabditis elegans with 9 samples.

Results

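The insulin-like peptide family of *C. elegans* was examined in RNA of whole worms. Its genes were taken by name, as every gene whose RefSeq symbol is *ins-* followed by a number, together with *daf-28*. The RefSeq annotation of WBcel235 holds 40 such symbols, and 39 of them are among the 45495 genes of the expression table, all annotated as protein-coding. The remaining one, *ins-38*, is annotated as a pseudogene and was not analysed here.

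Wild-type (WT) adult hermaphrodites were raised from synchronised L1 larvae at 20°C and put through alternate-day fasting (ADF) for 7 days at the young stage. M9 is named as the treatment, and in the methods it is the buffer that washed bacteria off the worms before fasting. The paper compares animal-based with plant-based peptone in the plates, and its RNA sequencing methods do not name which was used. ADF means that a day on *E. coli* OP50 was followed by a day on an empty plate, and whether the worms were collected after a feeding or a fasting day is not given in the sources used here. The labels list 9 libraries in 3 groups, namely control, young stage ADF and middle stage ADF, with 3 libraries in each. Values of 1 library, young stage ADF replicate 1, were analysed here, so the family's levels under control conditions or middle stage ADF, and any difference between groups, were not analysed.

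Insulin-like peptides are small secreted hormones. In worms they bind the single insulin receptor DAF-2, where some members act as agonists and others as antagonists. Active DAF-2 signals through a PI3 kinase and AKT cascade that keeps the FOXO factor DAF-16 out of the nucleus, and through this route food and sensory cues set dauer arrest, fat storage, reproduction and lifespan. Many of the peptides are made by a few sensory neurons and some by the intestine, and they are cut from larger precursors and released from dense core vesicles.

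Expression is given as FPKM, the number of fragments after correction for transcript length and library depth. The fragments behind the values were inferred. At the annotated exon length, 22 of the 35 members above 0 came out within 0.02 of a whole number of fragments, and for the other 13 the fragments rest on a length that was found by a search for whole numbers. The library total that divides the FPKM values is 18205113. Many FPKM values below are given with a 95% Clopper-Pearson interval on their recovered fragments, and others are given without one. Such intervals cover counting error only, since 1 library has no replicate error, and sequenced fragments are not independent molecules. In RNA of whole worms, fewer cells of a type and less RNA per cell cannot be told apart.

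Of the 39 genes, 22 reached an FPKM of 1, which is 56.4%. The same level was met by 56.9% of all 19959 protein-coding genes and by 26.2% of all genes in the table, so the share in the family was close to that of protein-coding genes. The median of the family was 1.48 FPKM, beside 1.93 FPKM for all protein-coding genes and 0 for all genes. Of the 39, 3 genes were above 10 FPKM, 6 lay between 5 and 8, 7 between 2 and 5, and 6 between 1 and 2. A further 13 were above 0 and under 1, and 4 were listed at 0. The 39 genes together held 1067 fragments, or 0.00586% of the library total, and the 3 highest genes made up 36.4% of the family's summed FPKM.

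**Figure D1:**
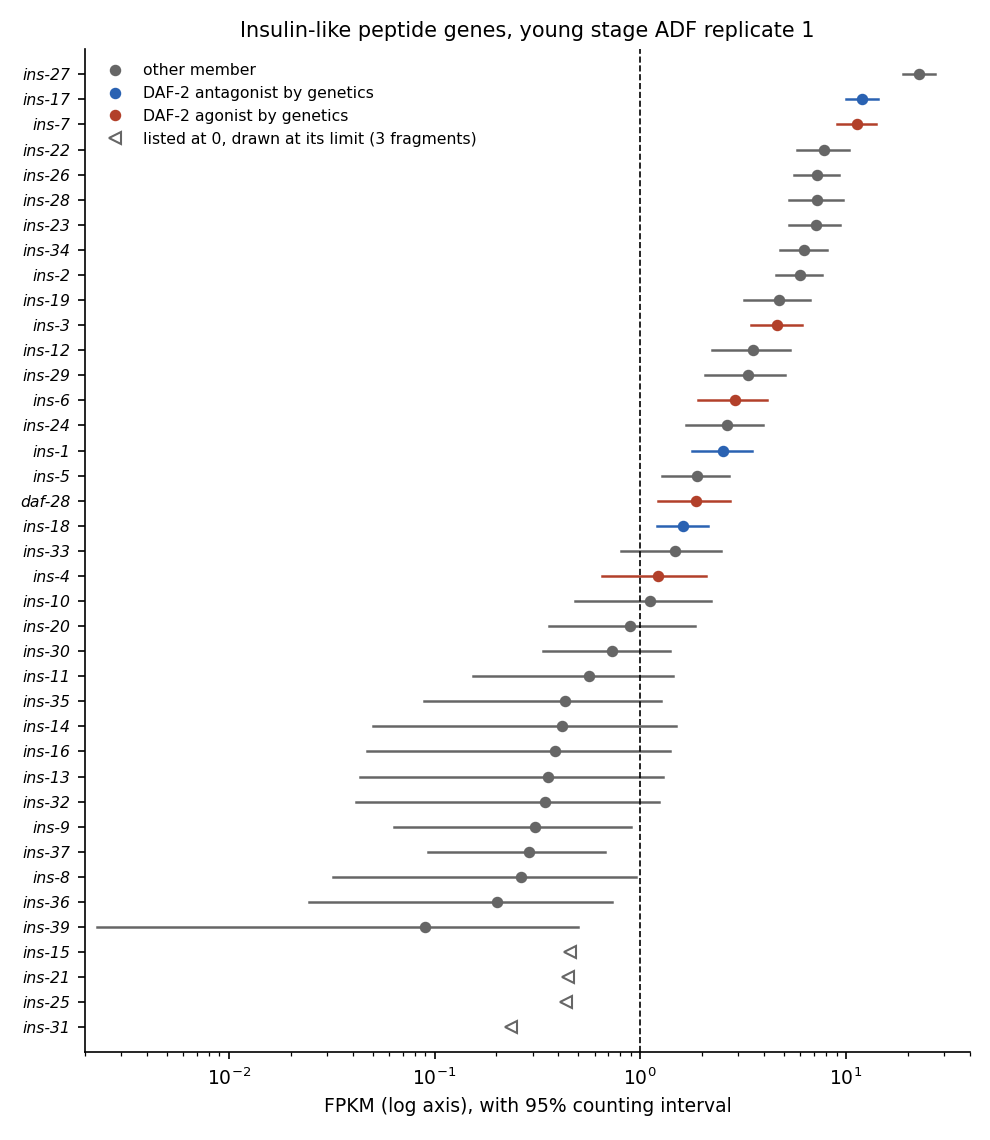
FPKM (log axis) of each of the 39 insulin-like peptide genes in young stage ADF replicate 1, ordered by level. Points are FPKM, lines are 95% counting intervals, the dashed line is FPKM 1, and open triangles stand at the limit of 3 fragments for the 4 genes listed at 0; *ins-27* stands apart at 22.7 FPKM, while the intervals of all other neighbours in the order overlap.

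The highest member was *ins-27*, at 22.7 FPKM (95% interval 18.9 to 27.0) on 128 fragments. The gene lies on the plus strand of chromosome I of WBcel235, from 14027236 to 14027588, and has 2 exons that encode 83 residues. It was followed by *ins-17* with 12.0 FPKM (95% interval 9.97 to 14.3) and *ins-7* with 11.3 FPKM (95% interval 9.07 to 14.0). The level of *ins-27* was 1.89 times that of *ins-17* (95% interval 1.47 to 2.44), and this was the only step in the whole order, out of 38, at which the intervals of neighbouring genes were separate. *ins-17* and *ins-7* did not differ beyond counting error, with a ratio of 1.06 (95% interval 0.799 to 1.41). Even *ins-27* was only at a percentile of 74.7 among protein-coding genes, and no member was in the upper 10% of them.

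Of the genes known as DAF-2 agonists from mutants, the 5 examined were *daf-28*, *ins-3*, *ins-4*, *ins-6* and *ins-7*. All of them were at FPKM of at least 1, a level met by 56.9% of all protein-coding genes. *ins-7*, which is expressed in the intestine and in neurons and is repressed by DAF-16 so that it forms a feedback between tissues, was the highest of the 5. It lies on the minus strand of chromosome IV, from 9682011 to 9682845, and its 11.3 FPKM rested on 87 fragments. *ins-3* followed with 4.65 FPKM (95% interval 3.45 to 6.13) on 50 fragments. *ins-7* was 2.44 times as high as *ins-3* (95% interval 1.70 to 3.52), so the pair differed by more than counting alone allows.

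The agonists of the sensory neurons that hold back dauer entry or promote dauer exit were lower. *ins-6* had 2.87 FPKM (95% interval 1.91 to 4.15) on 28 fragments. *daf-28*, on the plus strand of chromosome V from 19815133 to 19816454, had 1.87 FPKM (95% interval 1.22 to 2.74) on 26 fragments. *ins-4* had 1.22 FPKM (95% interval 0.650 to 2.09) on 13 fragments, so its interval reached under 1. Among these genes, *daf-28* and *ins-4* were not separated, with a ratio of 1.53 (95% interval 0.759 to 3.25), nor were *ins-3* and *ins-6*, with a ratio of 1.62 (95% interval 0.998 to 2.67). *ins-7* was 6.06 times as high as *daf-28* (95% interval 3.87 to 9.78).

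Markers of ciliated sensory neurons were low in the same library, where 56.9% of all protein-coding genes were at FPKM of at least 1. Of 6 such genes, 1 reached an FPKM of 1, namely *osm-6*, an intraflagellar transport gene, at 1.13 FPKM (95% interval 0.767 to 1.60). The median of the 6 was 0.201 FPKM, and the lowest was *daf-11*, a guanylyl cyclase gene, at 0.0789 FPKM on 6 fragments. The interval of *ins-6* lay above the intervals of all 6 markers, while the interval of *daf-28* overlapped that of *osm-6*. Which cells gave the family's fragments was not tested.

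The antagonists examined were *ins-1*, *ins-17* and *ins-18*. These 3 were at FPKM of at least 1, a level met by 56.9% of all protein-coding genes. *ins-17*, which favours dauer arrest, lies on the minus strand of chromosome III from 4476918 to 4477572. It was the highest of the 3 antagonists, with 124 fragments. *ins-1*, the member closest to human insulin and needed for learned avoidance of cues paired with starvation, had 2.53 FPKM (95% interval 1.78 to 3.49) on 37 fragments. *ins-18* had 1.62 FPKM (95% interval 1.21 to 2.13) on 51 fragments. *ins-17* was 4.74 times as high as *ins-1* (95% interval 3.26 to 7.04) and 7.39 times as high as *ins-18* (95% interval 5.29 to 10.4). The interval of the ratio of *ins-1* to *ins-18*, 0.993 to 2.43, just included equal levels.

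The length behind the value of *ins-18* is uncertain, and its interval and the intervals of its ratios rest on the fitted length. Its FPKM fits whole fragments at a length of 1726 bases, whereas the Ensembl annotation gives its exons 432 bases. With the annotated length its FPKM would stand for 12.8 fragments, which is no whole number, and what the longer length stands for was not tested. No other member differed as much, since the fitted length was within 10% of the annotated one for 33 of the 35 members above 0, the other exception being *ins-14*, and equal to it for 22. The median was 2.53 FPKM over the 3 antagonists and 2.87 FPKM over the 5 agonists, and the difference was not tested, since genes of 1 library are not replicates.

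Many members lie side by side in the genome. When genes separated by at most 20 kb were joined, 25 of the 39 fell into 7 clusters on chromosomes I, II, III and IV. Of these 25, 15 were at FPKM of at least 1, with a median of 2.64 FPKM. Of the 14 other genes, 7 were at that level, with a median of 0.776 FPKM. Both counts stand beside the 56.9% of all protein-coding genes at this level. A difference between clustered and other members was not tested. Within clusters, next neighbours were often far apart in level.

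**Figure D2:**
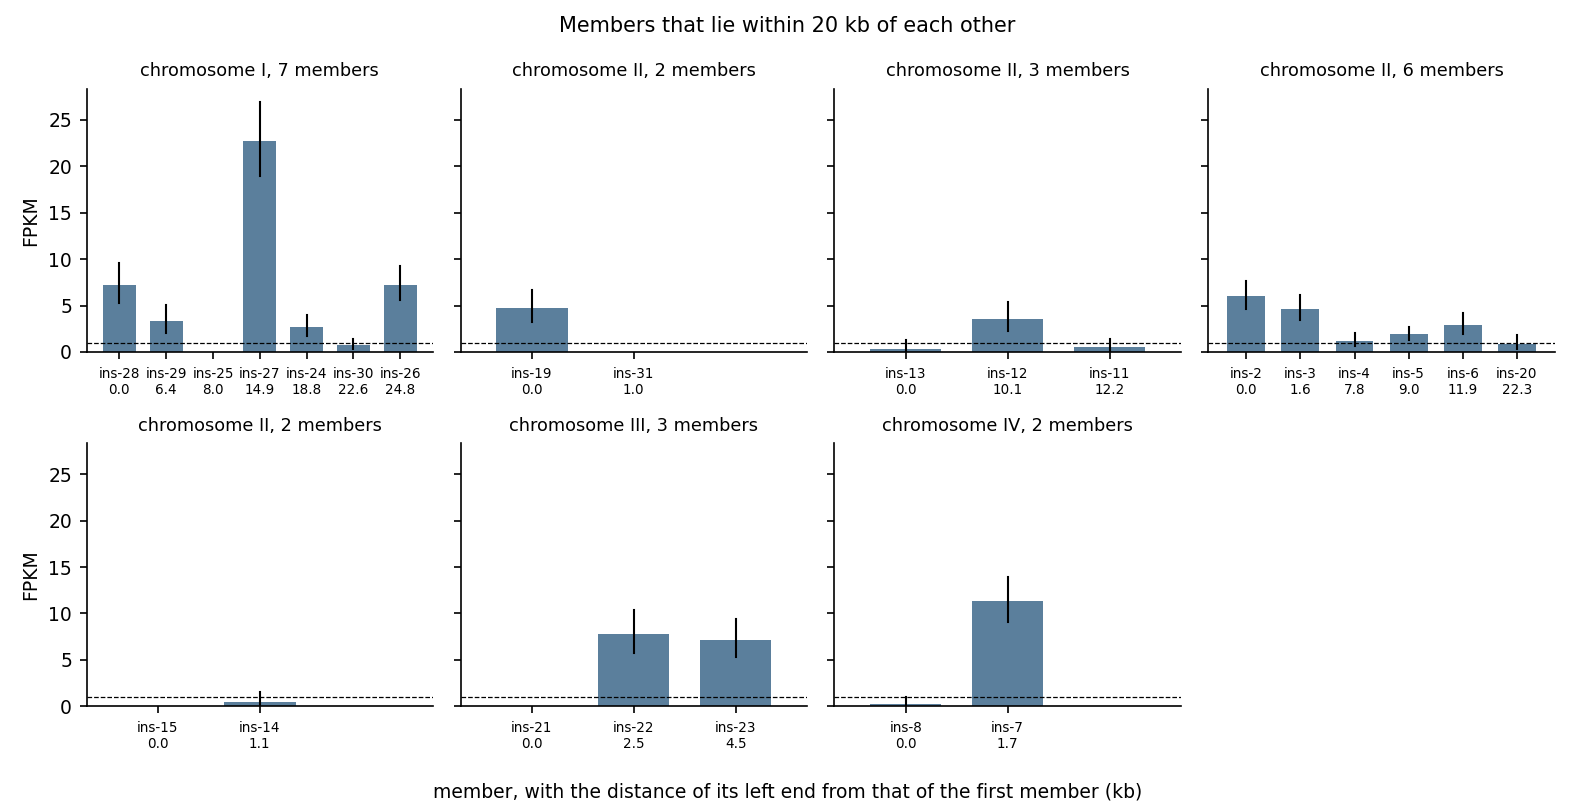
FPKM of the 25 members in the 7 clusters, in genome order, with the distance of each from the first member of its cluster in kb under its name. Bars are FPKM, black lines are 95% counting intervals (none for genes listed at 0), and the dashed line is FPKM 1; *ins-27* at 22.7 FPKM stands between *ins-25*, listed at 0, and *ins-24* at 2.64 FPKM.

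The largest cluster, of 7 genes in 25.4 kb, lies on chromosome I from 14012369 to 14037777 and held 291 fragments. Besides *ins-27* it contained *ins-26* with 7.25 FPKM (95% interval 5.58 to 9.26) on 64 fragments and *ins-28* with 7.22 FPKM (95% interval 5.29 to 9.63) on 46 fragments. These were in turn higher than *ins-29* at 3.32 FPKM and *ins-24* at 2.64 FPKM, with 21 and 23 fragments. The 2 genes under FPKM 1 were *ins-30*, at 0.732 FPKM on 9 fragments, and *ins-25*, listed at 0. *ins-27* was 3.13 times as high as *ins-26* (95% interval 2.30 to 4.29), 30.97 times as high as *ins-30* (95% interval 15.8 to 69.3) and 52.2 times as high as the limit of 3 fragments that a count of 0 allows for *ins-25*. The lower 95% limit of the ratio of *ins-27* to *ins-25* was 41.8.

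A cluster of 6 genes on chromosome II, from 5988524 to 6011321, holds 3 of the agonists and spanned a narrower range. Its levels ran from 5.98 FPKM for *ins-2* (95% interval 4.59 to 7.65) on 63 fragments to 0.896 FPKM for *ins-20* on 7 fragments, a ratio of 6.67 (95% interval 3.05 to 17.3). *ins-2* and its neighbour *ins-3* did not differ beyond counting error, with a ratio of 1.29 (95% interval 0.873 to 1.90). The member not yet described, *ins-5*, had 1.88 FPKM (95% interval 1.27 to 2.69) on 30 fragments. In this cluster 5 of the 6 genes were at FPKM of at least 1, and none was at 0.

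On chromosome III, *ins-22* and *ins-23* were alike and the adjoining *ins-21* was listed at 0. *ins-22*, whose peptide is widely used as a reporter of dense core vesicle release, had 7.80 FPKM (95% interval 5.75 to 10.3) on 48 fragments. *ins-23* had 7.13 FPKM (95% interval 5.31 to 9.37) on 51 fragments, and the ratio of the pair was 1.09 (95% interval 0.722 to 1.66). Set against a limit of 3 fragments for *ins-21*, the ratio was 17.6 for *ins-22*, with a lower 95% limit of 13.7, and 16.05 for *ins-23*, with a lower 95% limit of 12.6. The 3 genes lie within 4.95 kb on the same strand.

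On chromosome IV, next neighbours differed as well. *ins-7* and *ins-8* lie within 2.51 kb on the minus strand, and *ins-8* had 0.264 FPKM on 2 fragments. *ins-7* was therefore 42.9 times as high, with a wide interval of 11.5 to 360 because of the few fragments on *ins-8*. On chromosome II, *ins-19* at 4.70 FPKM (95% interval 3.20 to 6.68) on 31 fragments stood next to *ins-31*, listed at 0. It was 19.9 times as high as the limit of 3 fragments for *ins-31*, and the lower 95% limit of the ratio was 15.3. In another cluster of chromosome II, *ins-12*, at 3.54 FPKM (95% interval 2.22 to 5.37) on 22 fragments, was 6.31 times as high as its neighbour *ins-11* (95% interval 2.14 to 25.2) and 9.94 times as high as *ins-13* (95% interval 2.44 to 87.2). *ins-11* codes for a peptide that is induced by pathogenic bacteria and drives their avoidance, and it had 0.562 FPKM on 4 fragments. In the remaining pair, on chromosome II, *ins-14* at 0.415 FPKM on 2 fragments and *ins-15*, listed at 0, were both too low to be compared. How fragments shared by similar neighbours were assigned was not tested.

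Outside the clusters, *ins-34* on chromosome IV was the highest member after *ins-17*, with 6.28 FPKM (95% interval 4.77 to 8.12) on 58 fragments. *ins-33* on chromosome I, the median member of the family, had 1.48 FPKM (95% interval 0.807 to 2.48) on 14 fragments. Both genes on the X chromosome were under 1, with *ins-9* at 0.309 FPKM on 3 fragments and *ins-39* at 0.0899 FPKM on 1 fragment. On the autosomes, an FPKM of 1 was met by 7 of 10 genes on I, 7 of 15 on II, 3 of 5 on III, 3 of 4 on IV and 2 of 3 on V. These are small counts beside the share of 56.9% among all protein-coding genes, and differences between chromosomes were not tested.

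The genes are short, which sets how much each FPKM rests on. Their merged exons run from 284 to 955 bases with a median of 429 bases, against 1161 bases for all protein-coding genes, and their longest coding sequences encode 67 to 218 residues. All have 2 exons in the longest transcript, 32 in number, or 3 exons, 7 in number. For an annotated length of 429 bases an FPKM of 1 stands for 7.81 fragments, from 5.17 for the shortest member to 17.4 for the longest, whereas it stands for 21.1 fragments at 1161 bases.

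**Figure D3:**
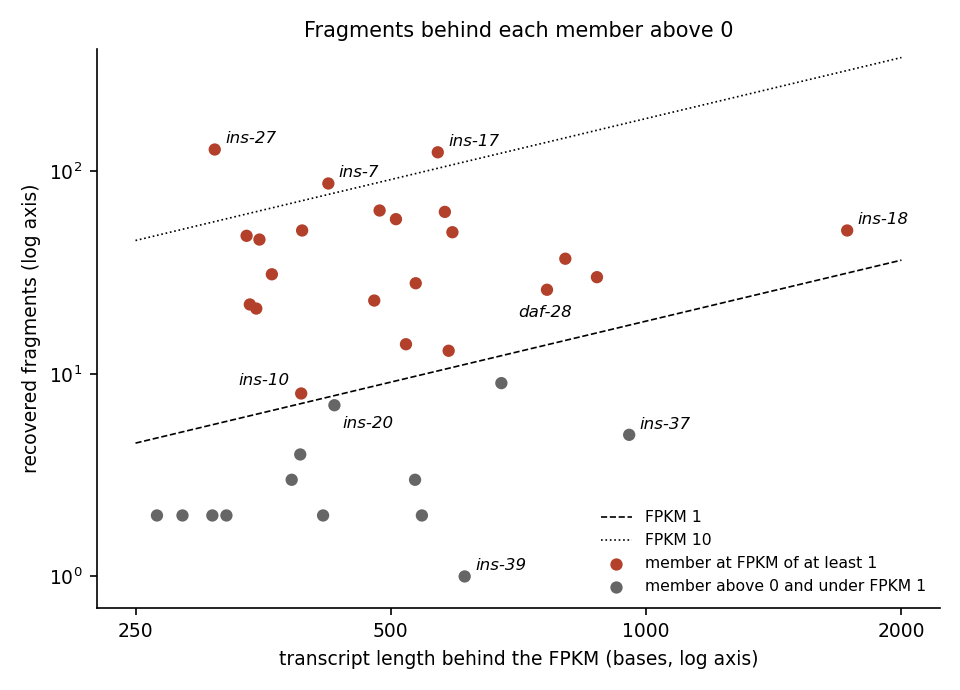
Recovered fragments of the 35 members above 0 against the transcript length behind their FPKM in bases (both axes log). The dashed and dotted lines mark FPKM 1 and FPKM 10; *ins-27*, *ins-17* and *ins-7* lie above the dotted line, and *ins-10*, with 8 fragments, and *ins-20*, with 7 fragments, lie on either side of the dashed line.

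The threshold of FPKM 1 therefore split genes that rest on few fragments. These were 13 for *ins-4* and 8 for *ins-10* above the threshold, and 7 for *ins-20* and 9 for *ins-30* under it. Just above it were *ins-4* and *ins-10*, the latter with 1.12 FPKM (95% interval 0.484 to 2.21) on 8 fragments. Just under it were *ins-20*, with 0.896 FPKM (95% interval 0.360 to 1.85), and *ins-30*, with 0.732 FPKM (95% interval 0.335 to 1.39). In all, the interval lay wholly above 1 for 19 of the 22 genes, the exceptions being *ins-33*, *ins-4* and *ins-10*. Of the 17 genes under 1, the intervals of 8 reached past 1, so that their side of the threshold was not detectable at this depth.

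Apart from *ins-20* and *ins-30*, the genes above 0 and under 1 had 1 to 5 fragments each. They are *ins-8*, *ins-9*, *ins-11*, *ins-13*, *ins-14*, *ins-16*, *ins-32*, *ins-35*, *ins-36*, *ins-37* and *ins-39*, and they ranged from 0.0899 to 0.562 FPKM. *ins-35*, which acts with *ins-7* in the control of dauer arrest, had 0.431 FPKM (95% interval 0.0890 to 1.26) on 3 fragments. *ins-37*, the longest transcript by annotation, had an interval that stayed under 1, at 0.288 FPKM (95% interval 0.0934 to 0.671) on 5 fragments. The 4 genes listed at 0 were *ins-15*, *ins-21*, *ins-25* and *ins-31*. A count of 0 was taken to allow up to 3 fragments, a fixed setting and not a Clopper-Pearson limit. In FPKM this was 0.236 for *ins-31* to 0.454 for *ins-15*. These limits are all under 1, although a value of 0 in such a table can also be a failed estimate.

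Exons of 3 members share bases with another gene that was itself at FPKM of at least 1. *ins-10* shares 74 of its 392 exon bases with *vps-39* on the opposite strand, a vacuolar sorting gene at 68.6 FPKM. *ins-34* shares 82 of its 507 exon bases with *nkcc-1* on the opposite strand, a cotransporter gene at 27.2 FPKM. *ins-13* shares 87 of its 308 exon bases with *acdh-2* on the same strand, an acyl-CoA dehydrogenase gene at 28.1 FPKM. Whether the counting used the strand is not given in the sources used here, as the methods name a stranded kit and the labels the Illumina TruSeq RNA kit, so the values of these members are uncertain, and the part of the overlapping genes in them was not tested. Without these 3 members, 20 genes reached an FPKM of 1.

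The receptor and the machinery that makes and releases the peptides were set beside the family, from lists chosen with earlier results of these data known. All 10 genes from the receptor to FOXO were at FPKM of at least 1, with a median of 21.3 FPKM. The share to set beside the counts of these lists is the 56.9% of all protein-coding genes at this level. The receptor gene *daf-2* had 19.4 FPKM (95% interval 18.7 to 20.1) on 2932 fragments, and 38 of the 39 peptide genes were below it. *ins-27* was the exception, and its interval of 18.9 to 27.0 FPKM included the level of *daf-2*. Whether the shortness of the peptide genes affects their FPKM beside that of longer genes was not tested. All 7 prohormone processing genes were also at FPKM of at least 1, with a median of 25.7 FPKM. Among them, *egl-3*, a proprotein convertase gene, had 14.9 FPKM (95% interval 13.8 to 16.1), *kpc-1*, another convertase gene, had 31.4 FPKM (95% interval 30.0 to 33.0), and *sbt-1*, which codes for a convertase chaperone, had 52.3 FPKM (95% interval 48.7 to 56.2). Of the 6 genes of vesicle release and insulin secretion, 5 were at FPKM of at least 1, with a median of 12.9 FPKM. *unc-31*, needed for dense core vesicle release, was the lowest at 0.975 FPKM (95% interval 0.787 to 1.19), whereas *asna-1*, which promotes insulin secretion, had 126 FPKM (95% interval 122 to 131).

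**Figure D4:**
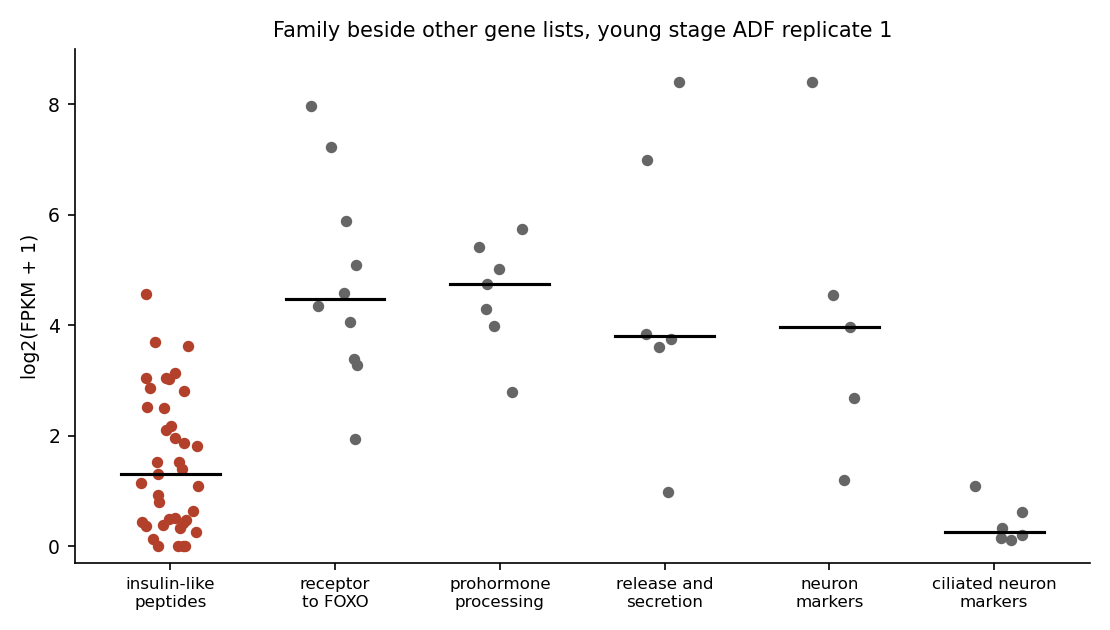
Levels as log2(FPKM + 1) of the 39 insulin-like peptide genes and of the genes in 5 lists, in young stage ADF replicate 1. *snb-1* belongs to both the release list and the neuron list, is the highest gene of each and is drawn in both. Each point is a gene and each bar the median of its list; the median of the family, from 1.48 FPKM, lies under those of the receptor to FOXO, processing, release and neuron lists and above that of the ciliated neuron markers, from 0.201 FPKM.

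Markers of tissues of an adult hermaphrodite were examined in the same library. An FPKM of at least 1 was met by 56.9% of all protein-coding genes. All listed markers of intestine, body wall muscle, pharyngeal muscle, hypodermis, germ line, yolk and neurons in general were at that level. Of the 6 markers of ciliated sensory neurons, only 1 was. The medians of the lists with all markers at this level ran from 1.68 FPKM for pharyngeal muscle to 1228 FPKM for yolk. The median was 14.6 FPKM for neurons in general, with a range from 1.29 FPKM for *rgef-1* to 339 FPKM for *snb-1*. The interval of *rgef-1*, 0.995 to 1.65 FPKM, reached under 1. It overlapped that of the ciliated neuron marker *osm-6*, 0.767 to 1.60 FPKM. The intervals of the other neuron markers, *rab-3*, *ric-4*, *unc-119* and *snb-1*, lay above those of all 6 ciliated neuron markers. The adult cuticle collagen gene *col-19* had 691 FPKM. The sperm markers *msp-3* and *spe-9* were at 5.29 and 0.217 FPKM.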

How the data were processed

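The authors deposited FPKM values, 1 table for the library analysed, which their methods describe as HISAT2 alignment to WBcel235 followed by Ballgown. The submitters' processing notes name Bowtie 0.12.2 and StringTie, with no role. Versions of HISAT2 and Ballgown and the annotation are not given in the sources used here. Of 45519 entries, 24 without a gene number (0.103% of the summed FPKM) were left out.

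RefSeq symbols were found by gene number for 44752 of 45495 genes, and exons were taken from Ensembl release 115, of the same build. The library total was read from piRNA genes of 21 bases, where all 268 values above 0 lay within 1e-06 of a whole multiple of 1 fragment. For each gene, whole lengths from 20 to 60000 bases were tried, and the length nearest the annotated one that gave whole fragments was kept. For 6 members, more than 1 such length lay within 1.25 times the annotated one. In simulated data, 99.7% of 1938 genes were recovered. Intervals are exact Clopper-Pearson, and those of ratios come from the share of fragments of a pair, scaled by length. For a gene at 0, the ratio is given against 3 fragments, beside the exact lower limit.

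The members and lists were chosen with earlier results of these data known. All 39 members are named or counted. The setting without overlapping genes and the pairs of genes set in ratio were chosen after their values were seen. With 1 library, no limma fit or other test was made. Software was scipy 1.17.1, numpy 2.4.6, pandas 2.3.3 and matplotlib 3.10.9 under Python 3.11.15.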

Additional observations from a re-analysis of the deposited data

How the results depend on the processing

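No paired analysis was possible because 1 library, young stage ADF replicate 1, was analysed, and for the same reason no replicate could be left out. The number of insulin-like peptide genes detected, 22 at the threshold of FPKM 1, followed that threshold, with 9 genes at FPKM 5 or more, 34 at FPKM 0.1 or more and 35 at any FPKM above 0. It was 23 after rescaling to the TPM scale, 22 when more than 3 fragments were also required, and 20 without the members that share exon bases with a gene at FPKM of at least 1, a setting chosen after seeing the data. The median of 1.48 FPKM was 4.10 when only members at FPKM of at least 1 were kept, which follows from the members left out. It ran from 1.35 without *daf-28* to 1.87 among members above 0 under the other settings. The number of members whose interval lay wholly above 1 was 19, and 18 to 19 under the alternatives. With the annotated exon length, *ins-18* lost this place. Depth limits the members under FPKM 1, of which 9 above 0 have at most 3 fragments.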
